A study of Mus musculus with 10 samples.

Results

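The IGF1 axis is described here by 9 genes, taken by symbol from the 23337 genes of a right atrial RNA-seq table: the ligand Igf1, the receptors Igf1r and Insr, and the IGF binding protein genes Igfbp2 to Igfbp7. Adult mice labelled control (n = 4) were compared with mice labelled for R26Cre driven TBX5 removal, called Tbx5 mutant (n = 6). Tamoxifen, at 0.167 mg per day for 3 days, activated a Cre recombinase under the ubiquitous R26 promoter to delete exon 3 of Tbx5 throughout the body, and tissue was taken 1 week later. For its own atrial libraries the study gives the control mice as R26CreERt2 and the mutant mice as Tbx5 fl/fl;R26CreERt2, so that both groups carry the Cre. The labels give a mixed strain and 2 ages, 6 to 8 and 8 to 10 weeks. Each mouse gave 1 library, and libraries are named by the labels' sex and number, as in control M1.

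Insulin-like growth factor 1 is a secreted growth factor that binds the tyrosine kinase receptor encoded by Igf1r, which is closely related to the insulin receptor encoded by Insr. Both receptors act through IRS adaptor proteins on PI3K, AKT and mTOR, a pathway known for cardiomyocyte growth and survival. The binding proteins hold IGFs outside the cell, some at the matrix, and proteases such as pappalysins release them. IGFBP7 binds IGF1 only weakly and is known mainly from endothelial cells and matrix. Besides cardiomyocytes, an atrium holds fibroblasts, endothelial cells and macrophages that also express several of these genes, and in a bulk sample fewer cells of a type and less RNA per cell cannot be told apart.

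The libraries held 5703775 to 7095141 counts. The precursor ribosomal RNA gene Rn45s took 38.9% of the counts in mutant M3 and 0.268% to 1.49% in the other libraries, and leaving the gene out of the fit moved no call among the IGF genes. Against the label, Tbx5 itself stood at 394 ± 83.3 CPM (SD, n = 6) in the Tbx5 mutant group and at 205 ± 17.8 CPM (SD, n = 4) in the control group (log2 fold change 0.94, adjusted p = 0.000495). CPM is the count of a gene scaled to the library size that edgeR's TMM method gives. Reads are counted per gene and not per exon, and every direction below is between the labelled groups. The sex labels of the control mice also go against the reads, with 7850 and more Xist reads in M1 and M2 and at most 14 in F1 and F2. The right atrial marker Bmp10 was at 1179 CPM or more in every library, and it fell from 2658 ± 422 to 1703 ± 405 CPM (log2 fold change -0.64, adjusted p = 0.0159).

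The 2 members whose difference passed the test are shown first with their promoters, because the manipulated gene encodes a T-box transcription factor. Igfbp5 lies on the reverse strand of chromosome 1 from 72857932 to 72874884 in the GRCm38 build, and Igfbp7 on the reverse strand of chromosome 5 from 77349240 to 77408041. RefSeq promoter windows on GRCm38.p6, 250 bases before to 50 after a start site, were found for 8 of the 9 members. The T-box core letters GGTGTG, searched on both strands with no other motif, occurred in 1 of the 9 windows of these genes (Igfbp2 has 2 windows), that of Igfbp4. They occurred in 19.0% of all 32851 windows. The match begins 47 bases before the start site of Igfbp4 and is in capitals below; the other windows are in lower case throughout. The upstream bases shown are chr1:72874885-72875115 for Igfbp5, chr5:77408046-77408295 for Igfbp7 (both reverse strand) and chr11:99040994-99041243 for Igfbp4 (forward strand), all 5′ to 3′.
Igfbp5 upstream: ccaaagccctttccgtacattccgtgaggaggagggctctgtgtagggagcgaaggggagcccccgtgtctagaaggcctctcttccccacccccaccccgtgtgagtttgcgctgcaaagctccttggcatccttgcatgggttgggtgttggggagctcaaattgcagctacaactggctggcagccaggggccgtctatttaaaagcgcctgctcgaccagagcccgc
Igfbp7 upstream: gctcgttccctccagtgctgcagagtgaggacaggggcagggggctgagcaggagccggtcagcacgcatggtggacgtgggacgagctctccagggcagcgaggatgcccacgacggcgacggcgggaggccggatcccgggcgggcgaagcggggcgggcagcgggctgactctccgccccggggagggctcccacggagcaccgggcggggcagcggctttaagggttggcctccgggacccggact
Igfbp4 upstream: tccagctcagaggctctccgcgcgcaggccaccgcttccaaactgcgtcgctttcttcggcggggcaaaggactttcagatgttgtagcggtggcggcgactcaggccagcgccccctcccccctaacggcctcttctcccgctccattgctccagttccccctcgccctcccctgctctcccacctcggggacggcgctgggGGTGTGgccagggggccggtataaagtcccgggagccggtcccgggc

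Which of the IGF genes differed between the labelled groups was asked in edgeR, by its quasi-likelihood test on the 13084 genes with enough reads for its filter. To be called, a gene needed a Benjamini-Hochberg adjusted p under 0.05 over all tested genes, a fold change over 1.5 in either direction and a mean normalized signal over 1 in the control mice. Igfbp5 fell and Igfbp7 rose in the mice labelled Tbx5 mutant, each by a little under 2-fold. The ligand and both receptors were not called, nor were Igfbp3, Igfbp4 and Igfbp6. Igfbp2 had no reads. Of the 8 members tested, 2 were called, 1 in each direction, against 15.7% of all tested genes called, 8.50% higher and 7.16% lower. With so few members, their share is not set apart from that background.

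**Figure D1:**
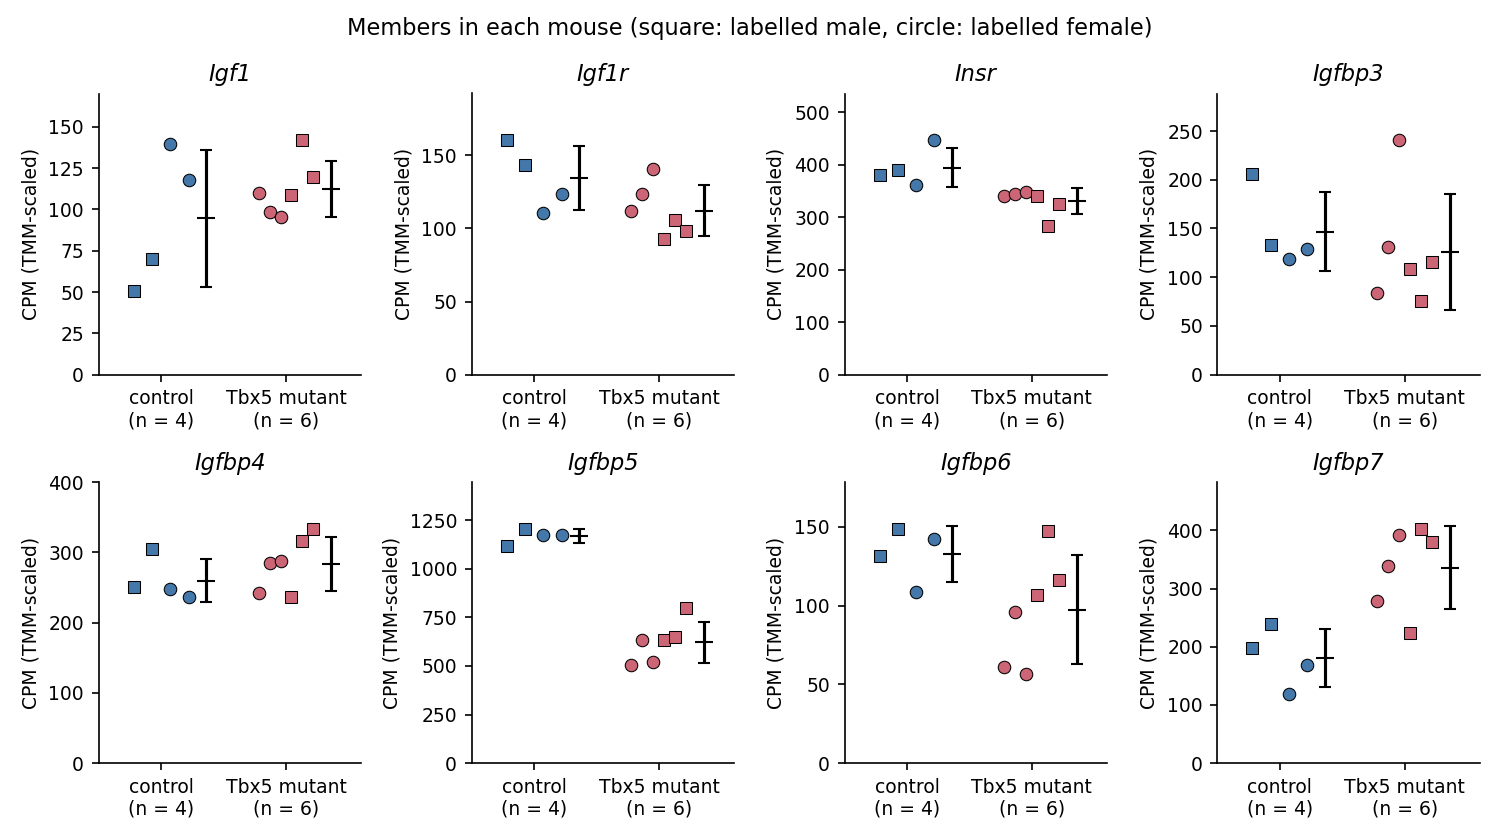
Level of 8 members in each mouse, in TMM-scaled CPM, with axes starting at 0. Squares are mice labelled male, circles mice labelled female, and the bar beside each group is the mean with its SD; Igfbp5 is lower in all 6 mice labelled Tbx5 mutant than in the 4 control mice, and Igfbp7 is higher in 5 of the 6.

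Among the binding proteins, Igfbp5, whose product binds IGFs and the matrix, had the most reads of the 9 genes. It was at 1118, 1206, 1174 and 1173 CPM in control M1, M2, F1 and F2. In the mutant mice it was at 506, 634 and 518 CPM in F1, F2 and F3 and at 632, 649 and 797 CPM in M1, M2 and M3. The control mice were nearly alike, with a coefficient of variation of 3.12%, and the groups did not overlap. The fall was 1.88-fold (95% interval 1.56 to 2.26), a log2 fold change of -0.91 (SE 0.12, adjusted p = 0.00014). The range over 22 other fits was -0.99 to -0.76, and the gene was called in each of them.

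Igfbp7, the weak IGF1 binder, was at 197, 239, 119 and 168 CPM in control M1, M2, F1 and F2. In the mutant mice it was at 278, 338 and 393 CPM in F1, F2 and F3 and at 224, 403 and 381 CPM in M1, M2 and M3. Mutant M1 lay below control M2, and the other 5 mutant mice lay above every control. The rise was 1.86-fold (95% interval 1.39 to 2.49), a log2 fold change of 0.89 (SE 0.20, adjusted p = 0.004). The range over the other fits was 0.61 to 1.06, each with a call. The last 85 bases of Igfbp7 overlap the end of Polr2b on the other strand, which was at a log2 fold change of -0.15 (adjusted p = 0.455).

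Igfbp6, whose product prefers IGF2, was at 132, 149, 108 and 142 CPM in control M1, M2, F1 and F2. Among the mutant mice it was at 61.0, 95.9 and 56.6 CPM in F1, F2 and F3 and at 107, 148 and 117 CPM in M1, M2 and M3. The 4 mutant mice F1, F2, F3 and M1 lay below every control, and M2 and M3 lay among the controls. The log2 fold change was -0.45 (SE 0.22, adjusted p = 0.136), which did not pass. Without mutant M2 it was -0.60 (adjusted p = 0.0355), and with offsets for transcript length it was -0.69 (adjusted p = 0.019), both past the threshold. With labelled sex as a covariate it was -0.50 (adjusted p = 0.043 in edgeR). With mice blocked by labelled sex and number it was -0.42 (adjusted p = 0.0443 in edgeR). Both of these changes were under the fold threshold. The adjusted p of this gene therefore depended on 1 mouse, on the treatment of length and on the covariates.

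Igfbp3, the main carrier of IGF1 in the circulation, varied most among the mutant mice, with a coefficient of variation of 47.5%. It was at 206, 133, 119 and 129 CPM in control M1, M2, F1 and F2, at 83.7, 131 and 240 CPM in mutant F1, F2 and F3, and at 108, 75.4 and 116 CPM in mutant M1, M2 and M3. A single mouse in each group, control M1 and mutant F3, stood far above the others. The log2 fold change was -0.22 (SE 0.27, adjusted p = 0.563), and without mutant F3 or control M1 it was -0.50 or -0.00, so that the size of the difference rested on those mice.

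Igfbp4, which inhibits IGF action until cleaved by pappalysins, was at 236 to 305 CPM in the control mice (median 249) and at 236 to 334 CPM in the mutant mice (median 286). The ranges overlapped almost entirely. The log2 fold change was 0.13 (95% interval -0.13 to 0.38, adjusted p = 0.442).

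Igfbp2 had 0 reads in all 10 libraries, out of 63397220 counts. A count of 0 allows up to 3 counts in a library, which is 0.40 to 0.82 CPM, for counting error only. Igfbp2 and Igfbp5 are neighbours on chromosome 1, their ends 5.46 kb apart on opposite strands, so the most counted and the uncounted member lie side by side. Igfbp1 and Igfbp3 lie in the same arrangement on chromosome 11 with 3.54 kb between them, and Igfbp1 also had 0 reads.

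The ligand Igf1 was at 50.6 and 70.2 CPM in control M1 and M2 and at 140 and 118 CPM in control F1 and F2. In the mutant mice it was at 110, 98.5 and 95.6 CPM in F1, F2 and F3 and at 109, 142 and 120 CPM in M1, M2 and M3. The control mice fell into 2 levels by labelled sex, with the labels that go against the Xist reads, and all 6 mutant mice lay above the lower level. The log2 fold change was 0.25 (SE 0.22, 95% interval -0.24 to 0.73, adjusted p = 0.429), and 0.05 to 0.49 with each mouse left out. The coefficient of variation was 43.7% in the control mice and 15.0% in the mutant mice. Igf1 overlaps the antisense gene Igf1os over 5117 bases at its start, and whether the counting used strand is not given in the sources used here.

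The receptor gene Igf1r was at 160, 143, 111 and 123 CPM in control M1, M2, F1 and F2. The mutant mice had 112, 124 and 141 CPM in F1, F2 and F3 and 92.9, 106 and 98.3 CPM in M1, M2 and M3. The groups overlapped, although the 3 mutant mice labelled male lay below every control. By the sex that the reads give, control M1 and M2 lay above all mutant mice labelled female. In the same way, control F1 and F2 lay above all mutant mice labelled male. The log2 fold change was -0.26 (SE 0.13, adjusted p = 0.14). With sex as a covariate and the control labels exchanged to match the reads, it was -0.26 (adjusted p = 0.037 in edgeR). That change was under the fold threshold.

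The insulin receptor gene Insr was at 381, 389, 361 and 446 CPM in control M1, M2, F1 and F2. The mutant mice had 341, 344 and 349 CPM in F1, F2 and F3 and 340, 283 and 324 CPM in M1, M2 and M3. All 6 mutant mice lay below every control. The log2 fold change was -0.26 (SE 0.09, 95% interval -0.46 to -0.05), a 1.19-fold fall. Its adjusted p of 0.0523 from edgeR missed the threshold, while DESeq2 gave 0.0131 and the edgeR fit without mutant M1 gave 0.0499. The change was under the fold threshold in this and all 22 other fits, so Insr was not called in any of them. Of the 8 members tested, Igfbp5 and Insr had groups that did not overlap, against 22.7% of all tested genes.

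Transcript length moved with the fold change across the table. Over 11868 tested genes with a length in GENCODE M21, Spearman's rho between log2 fold change and the longest transcript was -0.31, a correlation across genes within these libraries, which are not independent. The 460 tested genes of 9000 bases or more had a median log2 fold change of -0.34. The longest transcripts of Igf1r and Insr hold 11409 and 9355 bases. After each library's trend on length was entered as offsets, the log2 fold change was 0.06 for Igf1r (adjusted p = 0.752) and 0.01 for Insr (adjusted p = 0.972). Both values lay within their SE of 0 (0.13 and 0.09), and with a replicate block added they were -0.01 and -0.03. The 905 genes of 1300 bases or less had a median of 0.24. Igfbp7, with 1200 bases, kept its call at 0.67 (adjusted p = 0.0117), and Igfbp5, with 6006 bases, at -0.76 (adjusted p = 0.00112).

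**Figure D2:**
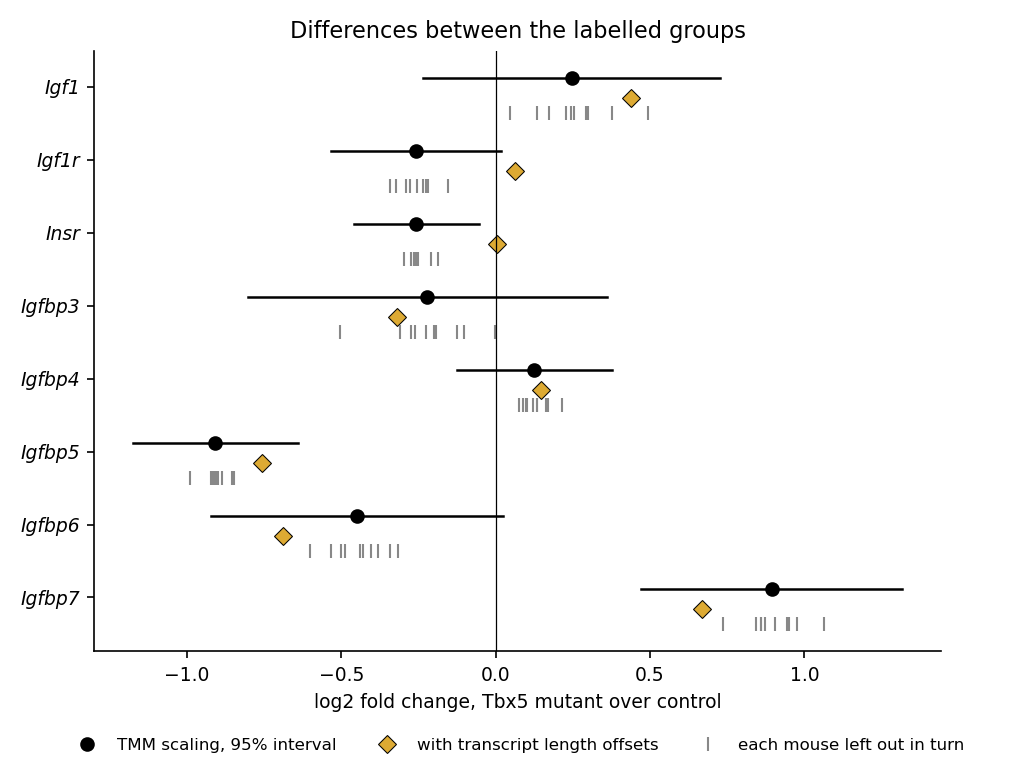
Log2 fold change of 8 members, mice labelled Tbx5 mutant over control. Black points carry the 95% interval of the edgeR fit, diamonds are the fit with transcript length offsets, and grey ticks are the fits with each of the 10 mice left out; Igfbp5 and Igfbp7 stay away from 0 in all of them, while the diamonds of Igf1r and Insr sit at 0.06 and 0.01.

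Levels of different genes were compared per kb. Per kb of the longest transcript, the control order was Igfbp5 at 194 ± 6.06 CPM per kb, Igfbp7 at 151 ± 42.2, Igfbp6 at 119 ± 15.9, Igfbp4 at 67.8 ± 7.98, Igfbp3 at 60.6 ± 16.6, Insr at 42.2 ± 3.90, Igf1 at 13.4 ± 5.87 and Igf1r at 11.8 ± 1.91 (SD, n = 4). The ranges of Igfbp5 and Igfbp7, of Igfbp7 and Igfbp6, of Igfbp4 and Igfbp3, and of Igf1 and Igf1r overlapped between these neighbours. In the mutant mice Igfbp7 led at 280 ± 59.5 CPM per kb, with no overlap with Igfbp5 at 104 ± 17.6 (SD, n = 6). The ranges of Igfbp5, Igfbp6, Igfbp4, Igfbp3 and Insr overlapped from each to the next. Per kb of coding sequence the control order below Igfbp5 was another, with Igfbp4 at 341 ± 40.1 CPM per kb, Igfbp7 at 193 ± 53.9, Igf1 at 191 ± 83.6, Igfbp6 at 186.0 ± 24.8, Igfbp3 at 168 ± 45.8, Insr at 95.8 ± 8.86 and Igf1r at 32.7 ± 5.31 (SD, n = 4). The neighbours from Igfbp7 to Igfbp3 overlapped in that order, while Igfbp4 lay above Igfbp7 without overlap. The order below Igfbp5, and so the place of the ligand, depends on the length used.

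The mix of binding proteins was taken as each gene's percent of the summed Igfbp2 to Igfbp7 level per kb, as a description with no test. On transcript length, Igfbp5 made up 33.1% ± 4.09 of the sum in the control mice and 17.5% ± 2.71 in the mutant mice, and Igfbp7 25.0% ± 4.32 and 46.6% ± 4.73 (SD, n = 4 and 6). Igfbp7 stood above Igfbp5 in 0 of the 4 control and 6 of the 6 mutant mice. The summed level itself was alike, at 593 ± 68.9 and 597 ± 96.0 CPM per kb. On coding length, the share of Igfbp5 was 61.9% ± 3.44 and 43.2% ± 4.46 and that of Igfbp7 was 8.21% ± 1.88 and 20.1% ± 2.95, and Igfbp5 led in every mouse. Which of them leads in the mutant mice therefore depends on the length used. The ratio of Igfbp7 to Igfbp5 changes by the same factor between the groups on either length, so the shift of the mix restates the 2 calls and adds no support to them. The summed level was 2323 ± 132 and 1776 ± 247 CPM per kb on coding length.

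**Figure D3:**
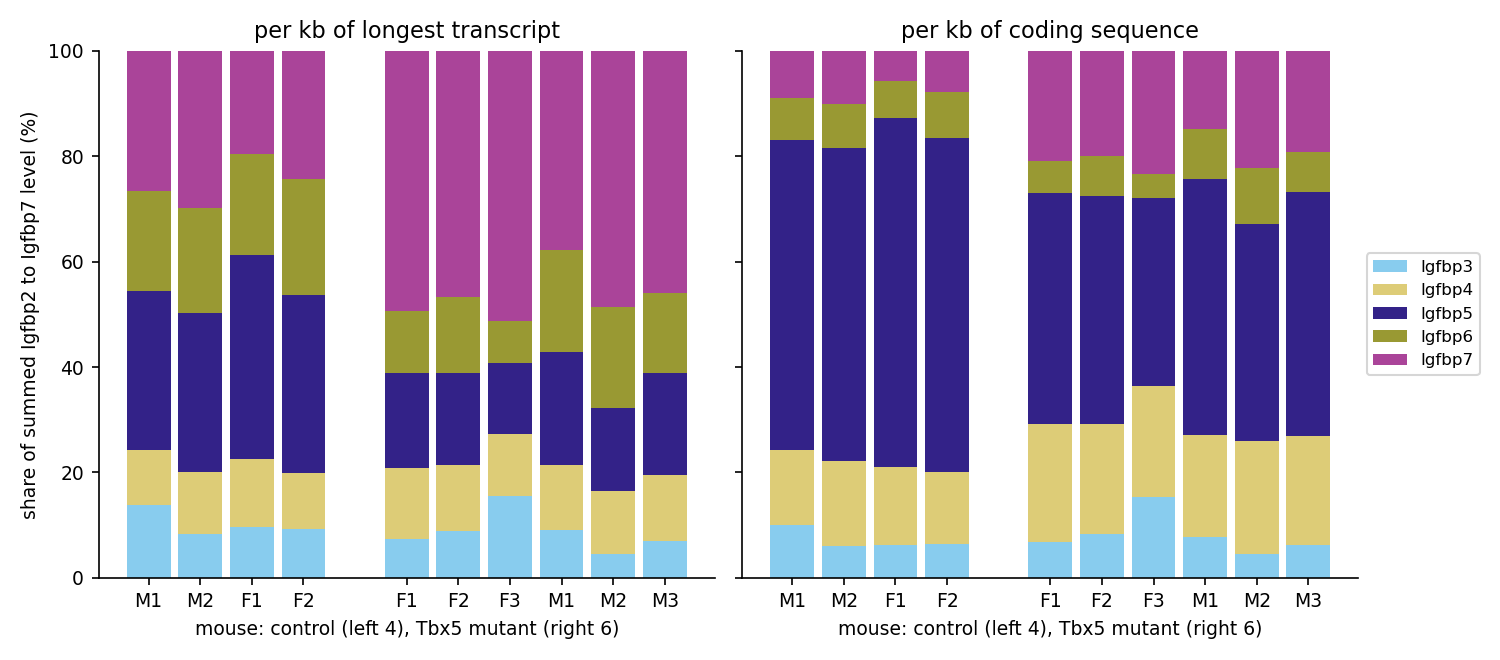
Each binding protein gene as a percent of the summed Igfbp2 to Igfbp7 level in each mouse, per kb of longest transcript (left) and per kb of coding sequence (right). The Igfbp5 band is narrower and the Igfbp7 band wider in the 6 mice labelled Tbx5 mutant, where the widest band differs between the panels; Igfbp2 has no band because it had 0 reads.

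Around these members, the lists of other pathway genes held 66 genes, of which 54 were tested, 7 rose and 4 fell, 20.4% called against 15.7% of all tested genes. The median log2 fold change over the 54 genes was -0.12, against -0.00 over all tested genes. The lists were chosen with earlier results of these data known. The calls were gathered by their place in the pathway, and the values of the named genes follow in that order.

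Among the other ligands, receptors and carriers, 3 of the 8 genes were tested. Igf2, the second IGF ligand, was at 137 ± 20.0 and 114 ± 52.4 CPM in the control and mutant mice (log2 fold change -0.27, adjusted p = 0.445). Igf2r, the receptor that clears IGF2, was at 535 ± 15.0 and 518 ± 79.7 CPM (-0.05, adjusted p = 0.782). The called gene of this list was Igfbpl1, a binding protein relative, which fell by 0.62 on the log2 scale (SE 0.17, adjusted p = 0.0146), with mice of the groups overlapping and a call in 17 of the 22 other fits. Without control F1, control F2 or mutant F2 it was at -0.52, -0.54 and -0.54 and not called. Under upper-quartile scaling in edgeR it was at -0.58 (adjusted p = 0.0187) and in limma at -0.57 (adjusted p = 0.0227). Both were just under the fold threshold and not called. Insulin itself was nearly uncounted, with 1 read of Ins1 and 0 of Ins2 over the 10 libraries.

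Of the proteases that cleave binding proteins and their inhibitors, 8 of 12 were tested, 4 rose and 0 fell. Over all tested genes, 8.50% were called higher and 7.16% lower. Adam12, a metalloprotease known to cut IGFBP3 and IGFBP5, went from 1.14 ± 0.453 to 3.22 ± 1.41 CPM (log2 fold change 1.47, adjusted p = 0.0109), on 151 reads in all. Pappa2, a pappalysin that cuts IGFBP5, went from 1.05 ± 0.495 to 2.29 ± 1.10 CPM (log2 fold change 1.15, adjusted p = 0.0423), on 117 reads in all and with a call in 13 of 21 other fits. That call was lost without control M1, M2 or F2 and without mutant F1, F3 or M1, at 0.89 to 1.18 (adjusted p = 0.0568 to 0.12). Stc2, a pappalysin inhibitor, went from 12.7 ± 1.94 to 20.0 ± 4.13 CPM (log2 fold change 0.66, adjusted p = 0.00789), and fell under the fold threshold without control M2 (0.57) or mutant F3 (0.58). The called genes thus include proteases and an inhibitor, and the other 4 tested genes were not called. Pappa, the pappalysin that cuts IGFBP4, was at a log2 fold change of 0.41 (adjusted p = 0.126), and with length offsets at 0.73 (adjusted p = 0.03), which is a call. Stc1, another of its inhibitors, was at 0.08 (adjusted p = 0.828).

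Of the adaptors and negative regulators of the receptors, 13 of 15 were tested, 3 rose and 1 fell, against 8.50% and 7.16% of all tested genes. The adaptor Grb10, a brake on both receptors, went from 104 ± 7.86 to 166 ± 14.3 CPM (log2 fold change 0.67, adjusted p = 0.000123). Socs2 and Socs3, feedback inhibitors of cytokine and growth hormone receptors, rose by 0.94 and 0.95 on the log2 scale (adjusted p = 0.000119 and 0.00142). The docking protein Gab1 fell from 98.4 ± 8.52 to 59.3 ± 5.89 CPM (log2 fold change -0.73, adjusted p = 8.03e-05). For these 4 genes no mutant mouse overlapped a control mouse, against 22.7% of all tested genes without overlap, and each was called in all 22 other fits. Uncalled genes of the list, such as Irs1, also had groups that did not overlap. Irs1, the adaptor of both receptors, was at 93.5 ± 11.7 and 65.3 ± 7.25 CPM (log2 fold change -0.52, adjusted p = 0.00235) and missed the fold threshold. With length offsets Irs1 was at -0.25 (adjusted p = 0.146). Irs2 was at 0.43 (adjusted p = 0.109), and with length offsets at 0.59 (adjusted p = 0.0492), which is a call.

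Downstream, none of the 23 genes of the PI3K, AKT, FOXO and mTOR list was called, while 10 passed an adjusted p of 0.05 without a fold over 1.5, 2 of them higher and 8 lower, against 31.3% of all tested genes at that adjusted p. An unadjusted p under 0.05 was reached by 14 of the 23, and DESeq2 and limma called 0. The largest among the higher was Akt1, the first AKT kinase, at 170 ± 11.4 and 252 ± 7.86 CPM (log2 fold change 0.57, adjusted p = 0.000159), a 1.49-fold difference just under the threshold. It is named for that, after its value was seen, and it was called in 5 of the 22 other fits. The median over the list was -0.23, and -0.08 with length offsets, with which 8 of the 23 passed an adjusted p of 0.05 and 0 were called.

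Upstream of Igf1, growth hormone signals through its receptor, JAK2 and STAT5 to Igf1. Of this list 4 of 5 genes were tested and 2 fell, against 7.16% of all tested genes called lower. Stat5b was at 168 to 196 CPM in the control mice and 72.2 to 96.9 CPM in the mutant mice, a log2 fold change of -1.09 (SE 0.10, adjusted p = 4.08e-06). Stat5a was at 40.2 to 47.2 and 18.3 to 27.5 CPM, a log2 fold change of -0.85 (SE 0.13, adjusted p = 0.000252). Neither gene's groups overlapped, against 22.7% of all tested genes without overlap, and both were called in all 22 other fits. The receptor gene Ghr was at 184 ± 5.29 and 237 ± 42.4 CPM (log2 fold change 0.36, adjusted p = 0.0339), under the fold threshold. Jak2, named after its value was seen, was at 80.6 ± 8.83 and 62.8 ± 10.6 CPM (log2 fold change -0.36, adjusted p = 0.0384), also under it. All 4 tested genes of the list thus had an adjusted p under 0.05, 1 higher and 3 lower, against 31.3% of all tested genes. The 3 genes for IGF2 mRNA-binding proteins were tested in edgeR and 0 were called, with 0 at an unadjusted p under 0.05 and 0 in DESeq2 and limma.

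**Figure D4:**
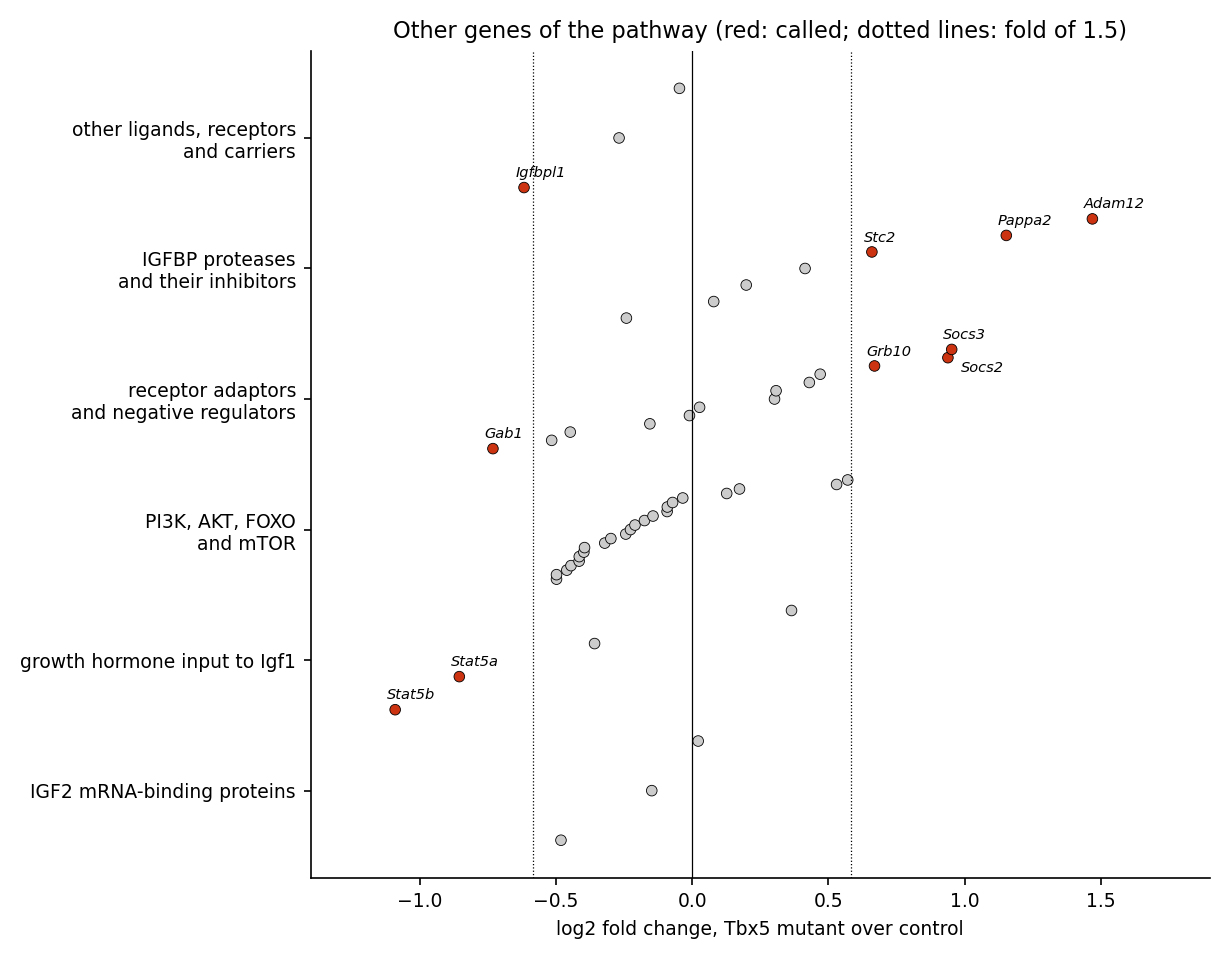
Log2 fold change of 53 of the 54 tested genes of the pathway lists, mice labelled Tbx5 mutant over control, 1 point per gene spread vertically within its list. The 10 called genes among them are red and named, and dotted lines mark a fold of 1.5; of these points Adam12 lies farthest right at 1.47 and Stat5b farthest left at -1.09.

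Markers of some of the cell types an atrium holds moved with the groups, and those of others did not. Over all tested genes, 8.50% were called higher and 7.16% lower. Of 8 fibroblast markers 4 rose and none fell, and their summed level was 3872 to 5205 CPM in the control mice and 7073 to 10272 CPM in the mutant mice. The collagens and Postn rose, while Dcn was at a log2 fold change of -0.01 (adjusted p = 0.952) and Pdgfra at -0.40 (adjusted p = 0.0152). Of 7 macrophage markers 4 rose, with sums of 470 to 578 and 650 to 950 CPM. None of 6 endothelial markers was called in edgeR, DESeq2 or limma (2 at an unadjusted p under 0.05), with sums of 1056 to 1513 and 1225 to 1507 CPM. None of 6 epicardial markers was called by those tools (1 at an unadjusted p under 0.05), with sums of 378 to 389 and 228 to 453 CPM. Of 6 smooth muscle and pericyte markers 1 rose, with sums of 299 to 362 and 298 to 397 CPM. All 5 cycling cell markers rose, with sums of 11.5 to 26.1 and 71.1 to 240 CPM. Of 5 atrial cardiomyocyte markers 3 fell, Nppa, Myl7 and Sln, with sums of 61112 to 71895 and 40716 to 55104 CPM. The study concludes that an element at Sln is an enhancer directly dependent on TBX5, and whether Sln followed cell number was not tested. Of 3 ventricular markers 2 rose, with sums of 189 to 294 and 785 to 1586 CPM. Adipocyte markers summed to 20.4 CPM in mutant M2 and to at most 4.14 CPM in the other mice, and Schwann cell markers to at most 22.0 CPM. Of the 5 blood genes listed, 3 were among the counted genes, and Hbb-bs and Hbb-bt were not. The globin genes Hba-a1 and Hba-a2 were at 0, with Alas2 the called gene of the blood list. The zeros are not read as an absence of blood. The part of these cell types in the differences of Igfbp5 and Igfbp7 was not tested.

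The genes whose levels moved most like those of the called members from mouse to mouse were sought after each group's mean was subtracted, over 10 libraries and 10950 other genes of at least 5 CPM. For Igfbp5 they were Fam132a, Smo, which encodes the Hedgehog signal transducer, and Cdc42ep3, with Pearson's r of 0.966, 0.946 and 0.939. For Igfbp7 they were Bax, the apoptosis effector, Itga4, an integrin chain, and Kctd10, with r of 0.963, 0.963 and 0.962. None of these 6 genes was called. An r above 0.9 was reached by 9 genes for Igfbp5 and by 45 for Igfbp7. The r values are a description, since all points share the libraries.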

How the data were processed

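RNA from the right atria of 10 mice was sequenced, and 1 table for the series was analysed. The authors deposited raw read counts per gene and library, and a signal made by dividing those counts by 1 size factor per library. The table also holds the authors' own DESeq2 comparison (a mean over all libraries, the log2 fold change, its standard error and test score, a p-value and adjusted p-value, and a fold ratio, all as deposited), which was not used. The submitters' processing notes name FastQC, TopHat2 2.0.11, featureCounts, DESeq2 and the mm10 build.

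Counts were fitted with edgeR 4.0.16 in R 4.3.3, with its expression filter, TMM scaling, the quasi-likelihood test on all 10 libraries with no covariate and Benjamini-Hochberg adjustment over all 13084 tested genes. Standard errors were computed as |log2 fold change| divided by the root of F. All adjusted p-values are from this fit unless another is named. CPM were printed with the SD over mice. Where nothing ties libraries to separate extractions, p-values measure the spread between these samples. The alternatives were other scalings, filters, DESeq2 1.42.0, limma 3.58.1 with a trend, sex covariates, a replicate block, transcript length offsets (a lowess curve of span 0.4 per library on GENCODE M21 lengths), the counts without Rn45s, each mouse left out and other fold thresholds. On counts simulated from these libraries for control against Tbx5 mutant, with a fold of 2, the fit recovered 161 of 196 changed genes among 12985 and made 7 other calls. Depth was 5703775 to 7095141 counts per library. Floors (3 counts) cover counting error only, since reads carry no molecular identifiers, while the 95% intervals of fold changes come from the edgeR fit and include the spread between mice.

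No 2 libraries of a group were alike within sampling noise (chi-square per degree of freedom at least 3.93 in 21 pairs).

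The members and the gene lists were chosen with earlier results of these data known. Named were all members, Tbx5, up to 4 called genes per pathway list by size of change, Igf2, Igf2r, Irs1, Irs2, Ghr, Pappa and Stc1, the 3 genes most like each called member, and the cell type markers. A gene of the protease list and a tissue marker are counted where lists are counted and are otherwise not reported here. Promoters came from RefSeq.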

Additional observations from a re-analysis of the deposited data

Results flagged for a closer look

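In 3 of the 16 groups of mice examined (8 members in each of the 2 labelled groups), 1 mouse stood apart by Dixon's 95% criterion, which chance alone meets in about 1 in 20 groups. Igfbp3 was at 206 CPM in control M1, against 119 to 133 CPM in the other 3 control mice, and at 240 CPM in mutant F3, against 75.4 to 131 CPM in the other 5 mutant mice. The lowest Insr level, 283 CPM in mutant M2, lay under the 324 to 349 CPM of the other 5 mutant mice.

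For Igf1, the difference between the labelled groups itself differed by labelled sex. The difference was positive in mice labelled male, with mean levels of 60.4 CPM in the control and 123 CPM in the mutant mice, and negative in mice labelled female, with 129 and 101 CPM. The interaction was 1.38 on the log2 scale (SE 0.23, adjusted p = 0.0258 in edgeR, 38 genes passing; the other 7 members had an adjusted p of 0.139 or more), a test chosen after seeing the data. The Xist and Ddx3y reads of the 4 control mice go against their sex labels. With those labels exchanged, the interaction was -0.81 (adjusted p = 0.301), with means of 129 and 123 CPM in males and 60.4 and 101 CPM in females, and 1 gene passed in all. The exchanged labels are those that the reads give the control mice, and with them the Igf1 interaction did not pass. The value of 1.38 thus holds only for labels that the reads go against.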

How the results depend on the processing

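Igfbp5 and Igfbp7 kept their direction and their call in each of the 22 other fits. The number of members called was 2, with 2 to 3 when each mouse was left out, 4 with the replicate block and length offsets together (Igfbp3 and Igfbp6 joined), and 0 at a fold over 2, because both changes are below that fold. With the replicate block alone, Igfbp3 was at -0.56 (adjusted p = 0.0247) and Igfbp6 at -0.42 (adjusted p = 0.0443). Neither gene was called in that fit, because both changes were under the fold threshold, and 1957 genes of the table were called. The block groups mice by labelled sex and number, and mutant F3 and M3 share theirs with no control. With the block, those mice therefore add nothing to the estimated difference between the groups. Leaving out mutant F3, with no block, put Igfbp3 at -0.50. Mice of the same labelled sex and number did not deviate together, with r over genes of -0.0387 to 0.0409 in the 4 shared names. Of 8 such mice, 0 were most like the mouse of their own name. The control sex labels go against the reads, so the names cannot show whether the mice were paired in some other way.

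With length offsets the sign changed for Igf1r (0.062) and Insr (0.0052), both within 1 SE of 0, and with the replicate block and length offsets together they were at -0.014 and -0.027. Exchanging the control sex labels, as the reads have them, turned the Igf1 interaction to -0.81, which did not pass (adjusted p = 0.301 in edgeR). The adjusted p of Igf1r passed in 1 of 22 fits, that with exchanged control sex labels as a covariate (0.037 in edgeR), without a call. The adjusted p of Insr ranged from 0.0131 to 0.972 over the fits and passed in 6 of 22. Its change was under the fold threshold in all of them, so it was never called. The adjusted p of Igfbp6 ranged from 0.00502 to 0.276 and passed in 5. Igfbp6 was called only with length offsets, with or without the replicate block, and without mutant M2.

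The number of genes called was 2049 (1112 higher, 937 lower) and 1807 to 2205 with each mouse left out (983 to 1169 higher, 824 to 1076 lower). It was 1284 (653 higher) at a mean count of at least 50, which tests fewer genes. Without a fold threshold it was 4096 (2129 higher, 1967 lower), and over a fold of 2 it was 906 (539 higher, 367 lower). The 11 pathway calls became 27 and 4 under those thresholds, and 10 to 11 with each mouse left out.

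On coding length the share of Igfbp5 was 61.9% in control and 43.2% in mutant mice, and that of Igfbp7 8.21% and 20.1%. With each mouse left out, on transcript length, these shares were 31.3% to 34.2% and 16.8% to 18.3% for Igfbp5, and 23.4% to 26.9% and 45.7% to 48.4% for Igfbp7. Low counts limit Pappa2, with 117 reads over all libraries, and Adam12, with 151. The cause of the other shifts was not tested.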
